A study of Homo sapiens with 13 samples.

Results

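The genes described here are 10 noncoding genes read by RNA polymerase III: the vault RNA genes VTRNA1-1, VTRNA1-2 and VTRNA1-3, the Y RNA genes RNY1, RNY3 and RNY4, and RMRP, RPPH1, RN7SK and RN7SL1. They were taken by name from the RefSeq annotation of GRCh38.p14, each with its annotated span plus 1000 bp to both sides, and they are 10 of the 58961 RefSeq genes placed on a chromosome there. All 10 were found. The data are CUT&RUN peak lists, in which a nuclease tethered to an antibody releases the DNA beside the bound protein or histone mark. The cells came from PANC1, an established line of human pancreatic ductal carcinoma, made to express BRG1 stably (PANC1-BRG oe in the labels). Every library shares that genotype, and PANC1 cells without it were not analysed here. The labels name no clone. Mild crosslinking was used, with 500000 cells for each library. The 6 targets were NRF2, BRG1, SMARCC1, H3K4me1, H3K4me3 and H3K27ac, with 2 replicates each. The IgG library was not used here.

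RNA polymerase III makes short, abundant RNAs. Genes with an internal promoter, such as tRNA and vault RNA genes, hold A and B boxes within the transcribed part. Genes with an external promoter, such as RMRP, RPPH1, RN7SK and the Y RNA genes, carry a TATA element and a proximal sequence element just upstream, with an octamer often further away. The products work in different particles. Vault RNAs sit in the vault ribonucleoprotein, Y RNAs bind the Ro60 and La proteins, RMRP and RPPH1 are the RNA parts of RNase MRP and RNase P, RN7SK holds the elongation factor P-TEFb inactive, and RN7SL1 encodes the 7SL RNA of the signal recognition particle. NRF2 is a stress-responsive transcription factor that turns on antioxidant genes. BRG1 and SMARCC1 are subunits of BAF and PBAF chromatin remodellers. H3K4me3 marks promoters, H3K27ac marks active promoters and enhancers, and H3K4me1 marks enhancers.

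The lists held 1538 and 919 peaks for NRF2, 3213 and 6610 for BRG1, 600 and 572 for SMARCC1, and between 17752 and 37283 for each mark library. They carry no read counts, so depth is unknown and an absent peak may reflect depth alone. Of the 5 epithelial or ductal marker genes reported here, KRT8, KRT18, KRT19 and SOX9 had H3K4me3 in both libraries, KRT7 did not, and all 5 had H3K27ac. Of 8 markers of blood, endocrine, acinar and liver cells, 0 had H3K4me3 in both libraries and only PTPRC had H3K27ac. With 2 libraries for each target, an exact permutation test between any 2 targets cannot give a two-sided p under 0.333, and the labels do not say that replicates were separate cultures. The values below are therefore descriptions, with no test.

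Promoter sequence was at hand for the flanks of some of these genes, through RefSeq promoter windows of neighbouring genes (GRCh38.p14, 250 bp before to 50 bp after a start). The table has no window of the 10 genes themselves, and 5 windows of neighbours came within 1000 bp of one. Each window was searched on both strands for TATAA, the B box core GTTCNANNC, the octamer ATTTGCAT, the antioxidant response element core TGACNNNGC and the AP-1 element TGANTCA. The last pair of motifs can overlap. Of all 35116 RefSeq windows, TATAA was in 20.4%, GTTCNANNC in 7.48%, ATTTGCAT in 1.77%, TGACNNNGC in 13.3% and TGANTCA in 7.71%. The 4 windows that hold any of these letters are shown, with matches in capitals, because they are the flanking DNA, over or beside which the peaks lie. They are VTRNA1-1 through LOC105378198 (chr5:140711026-140711325, plus strand), RMRP through CCDC107 (chr9:35658042-35658341, plus strand), RPPH1 through PARP2 (chr14:20343385-20343684, plus strand) and RN7SK through GSTA4 (chr6:52995235-52995534, minus strand).
VTRNA1-1: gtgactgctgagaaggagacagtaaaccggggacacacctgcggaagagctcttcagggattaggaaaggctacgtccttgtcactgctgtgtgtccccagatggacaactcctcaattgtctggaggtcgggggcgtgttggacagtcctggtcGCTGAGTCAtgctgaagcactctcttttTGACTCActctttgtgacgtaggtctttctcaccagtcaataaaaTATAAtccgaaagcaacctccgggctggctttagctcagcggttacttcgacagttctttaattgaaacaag
RMRP: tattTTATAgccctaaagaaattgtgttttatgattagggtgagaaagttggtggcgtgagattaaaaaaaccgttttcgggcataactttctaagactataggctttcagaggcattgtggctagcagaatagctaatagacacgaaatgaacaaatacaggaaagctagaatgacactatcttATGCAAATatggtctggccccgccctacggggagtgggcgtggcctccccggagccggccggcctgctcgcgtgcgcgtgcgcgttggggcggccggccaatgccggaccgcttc
RPPH1: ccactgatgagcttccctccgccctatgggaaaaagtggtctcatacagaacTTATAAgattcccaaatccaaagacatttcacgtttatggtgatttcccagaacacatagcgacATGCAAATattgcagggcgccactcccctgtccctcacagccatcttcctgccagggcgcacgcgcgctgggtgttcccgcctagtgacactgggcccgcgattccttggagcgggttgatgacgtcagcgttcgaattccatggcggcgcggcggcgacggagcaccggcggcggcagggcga
RN7SK: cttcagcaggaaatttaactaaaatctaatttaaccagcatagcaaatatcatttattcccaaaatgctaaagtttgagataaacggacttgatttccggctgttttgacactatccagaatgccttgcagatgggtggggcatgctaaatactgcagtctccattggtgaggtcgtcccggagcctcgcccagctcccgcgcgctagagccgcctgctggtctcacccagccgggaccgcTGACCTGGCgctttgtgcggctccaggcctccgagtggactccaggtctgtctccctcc

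The VTRNA1-1 window ends 50 bases inside the gene. It holds a TATAA 18 bp from the span, a TGANTCA match 61 bp away and, 87 bp away, the stretch GCTGAGTCA. That stretch matches TGACNNNGC on the opposite strand and TGANTCA at once. In the RMRP window the first capitals are a TATAA on the opposite strand, 27 bp from the RMRP span, and the second are the octamer, 208 bp away. RPPH1 shares its window with PARP2, a DNA repair enzyme gene that is known to be read in the opposite direction. That window holds 27 bases of the RPPH1 span, a TATAA 26 bp from it on the opposite strand, and the octamer 90 bp away. The window near RN7SK belongs to GSTA4, a glutathione transferase gene, and has a TGACNNNGC match 327 bp from the RN7SK span. The fifth window, of the lncRNA gene GHET1 beside RNY1, held none of these letters. A match is only a run of letters and does not show binding.

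NRF2 peaks lay at most of the vault and Y RNA genes, and they were weak or absent at the other 4. A peak in both libraries was found at 6 of the 10 genes, VTRNA1-1, VTRNA1-2, RNY1, RNY3, RNY4 and RMRP, where 0.812% of all RefSeq genes had one by the same rule. In either library it was 8 of 10, against 2.68% of all genes. Among 429 tRNA genes, which polymerase III also reads, 50.6% had an NRF2 peak in both libraries. The median over the 6 genes of the mean highest fold enrichment was 6.13, against 4.79 over all 479 genes called and 6.47 over the 217 tRNA genes called. With only peaks of −log10 q of at least 5, the count was 3 of 10, VTRNA1-1, VTRNA1-2 and RNY4, against 0.263% of all genes. The 18 NRF2 peaks were all distinct, so none counted for more than 1 of the 10 genes, and the tRNA gene nearest to any of the 10 was 265925 bp away, from RPPH1.

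**Figure D1:**
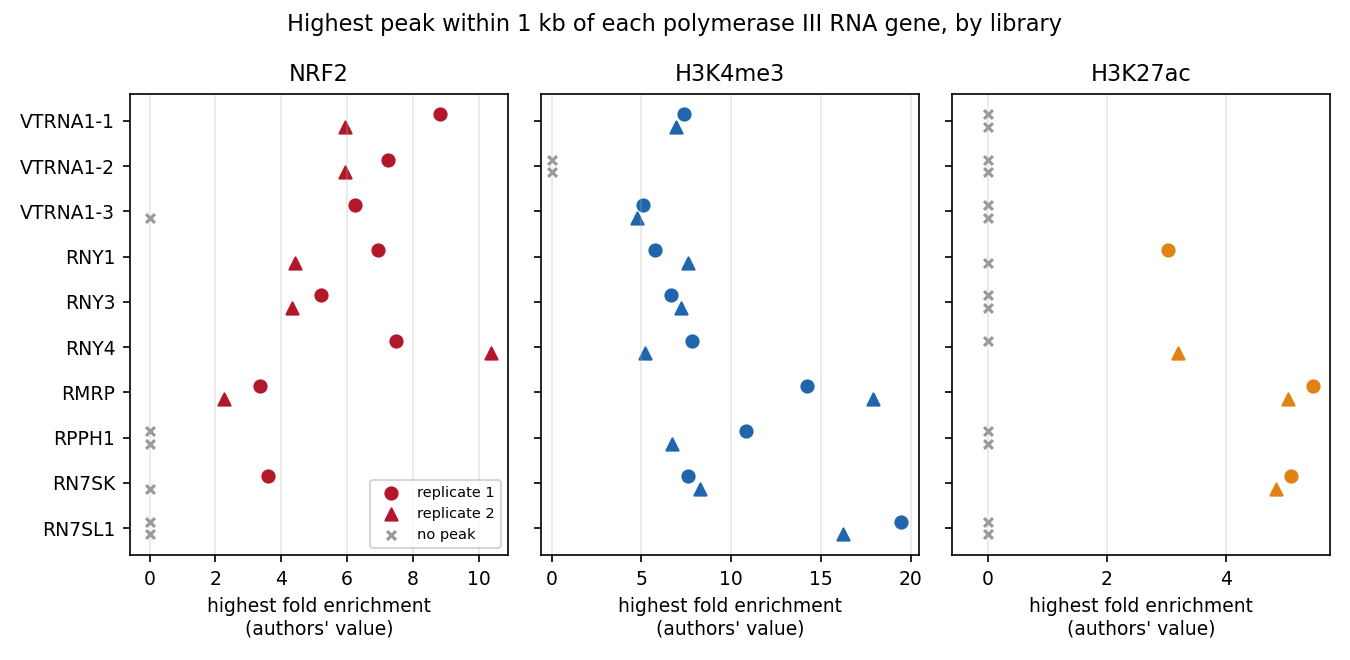
Highest fold enrichment (the authors' value, horizontal axis) of any peak within 1 kb of each gene, for NRF2, H3K4me3 and H3K27ac. Circles are replicate 1, triangles replicate 2 and grey crosses mark no peak; RNY4 reached 10.4 for NRF2 and RN7SL1 19.5 for H3K4me3, while RPPH1 and RN7SL1 had no NRF2 peak.

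Among the vault RNA genes, VTRNA1-1 (gene ID 56664, chromosome 5, 140711276 to 140711373) had NRF2 fold enrichments of 8.83 and 5.93 in replicates 1 and 2, with a mean of 7.38 ± 2.05 (SD, n = 2). Those peaks ranked 45 of 1538 and 62 of 919 in their libraries. VTRNA1-2 (140718926 to 140719013) had 7.24 and 5.92, with a mean of 6.58 ± 0.933 (SD, n = 2). VTRNA1-3 (140726159 to 140726246) had 6.24 in replicate 1, ranking 137 of 1538, and no peak in replicate 2, where the nearest lay 6881 bp away. All 3 thus stood in the upper part of the replicate 1 list, and the loss in replicate 2 concerned only VTRNA1-3. The 3 genes lie within a stretch of 14.971 kb, over which RefSeq also places the lncRNA LOC105378198, and their nearest coding gene is ZMAT2, 4590 bp from VTRNA1-1.

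The Y RNA genes RNY1, RNY3 and RNY4 lie within 23.9 kb on chromosome 7. RNY4 (148963315 to 148963410) had the highest NRF2 values of the 10 genes in replicate 2, with 7.49 and 10.4 in replicates 1 and 2 and a mean of 8.93 ± 2.03 (SD, n = 2). Its replicate 2 peak was number 8 of 919. RNY1 (148987136 to 148987248) had 6.94 and 4.41, with a mean of 5.68 ± 1.79 (SD, n = 2), and RNY3 (148983755 to 148983856) had 5.21 and 4.32, with a mean of 4.76 ± 0.627 (SD, n = 2). Replicate 1 was the higher library at RNY1 and RNY3, and replicate 2 at RNY4. RNY5, the fourth Y RNA gene, lies on the same chromosome (148941488 to 148941571), 57197 bp from its nearest coding gene EZH2. Its NRF2 values were 5.28 and 6.16.

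The remaining genes had weak NRF2 peaks or none called. RMRP (chromosome 9, 35657750 to 35658019) had 3.34 and 2.26, with a mean of 2.80 ± 0.767 (SD, n = 2). Its peaks ranked 1149 of 1538 and 908 of 919, and the second had a −log10 q of 0. RN7SK (chromosome 6, 52995620 to 52995951) had 3.59 in replicate 1 and no peak in replicate 2, where the nearest was 1897 kb away. RPPH1 (chromosome 14, 20343071 to 20343411) and RN7SL1 (chromosome 14, 49586580 to 49586878) had no NRF2 peak in either library. The nearest NRF2 peak to RPPH1 was 266 kb away in both libraries, about as far as its nearest tRNA gene, TRP-AGG2-5, and the nearest to RN7SL1 was 276 kb away in replicate 1 and 1213 kb in replicate 2. In the order of mean values, RNY4, VTRNA1-1, VTRNA1-2, RNY1 and RNY3 followed each other with overlapping replicates at every step, and only RMRP stood clear below the gene before it.

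NRF2 summits stood beside the genes more than on them. Of the 18 NRF2 peaks, 2 had their summit inside a span, both at RMRP, and the median distance from summit to span was 146.5 bp. The peaks themselves often reached the genes. All but 7 of the 18 overlapped the span, and 10 covered at least 50% of it. At VTRNA1-2 both libraries had a peak on each side, with summits 199 and 244 bp before the lower-coordinate end and 202 bp past that end in both. At RNY3 the highest summits lay 163 and 161 bp before the lower end. At RNY1 both summits lay 244 bp past it, which is beyond the 113 bp span. The highest summits of tRNA genes were a median of 238 and 231 bp from the span in replicates 1 and 2, against 181 and 146.5 bp for the genes described here. At VTRNA1-1 the peaks of both libraries, 660 and 521 bp wide, covered every match of the window shown above, so no match is singled out. Their summits were 129 and 103 bp from the GCTGAGTCA stretch. At RMRP the NRF2 peaks covered the TATAA in 2 libraries and the octamer in 1. The replicate 1 peak at RN7SK covered the TGACNNNGC match of the GSTA4 window, and its summit was 108 bp from the start of GSTA4. Whether that peak belongs to RN7SK or to GSTA4 cannot be told apart. The same holds at RNY1, where the NRF2 summits of both libraries were 147 bp from the start of GHET1. It also holds at VTRNA1-1, since LOC105378198 begins at the lower-coordinate end of that gene.

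**Figure D2:**
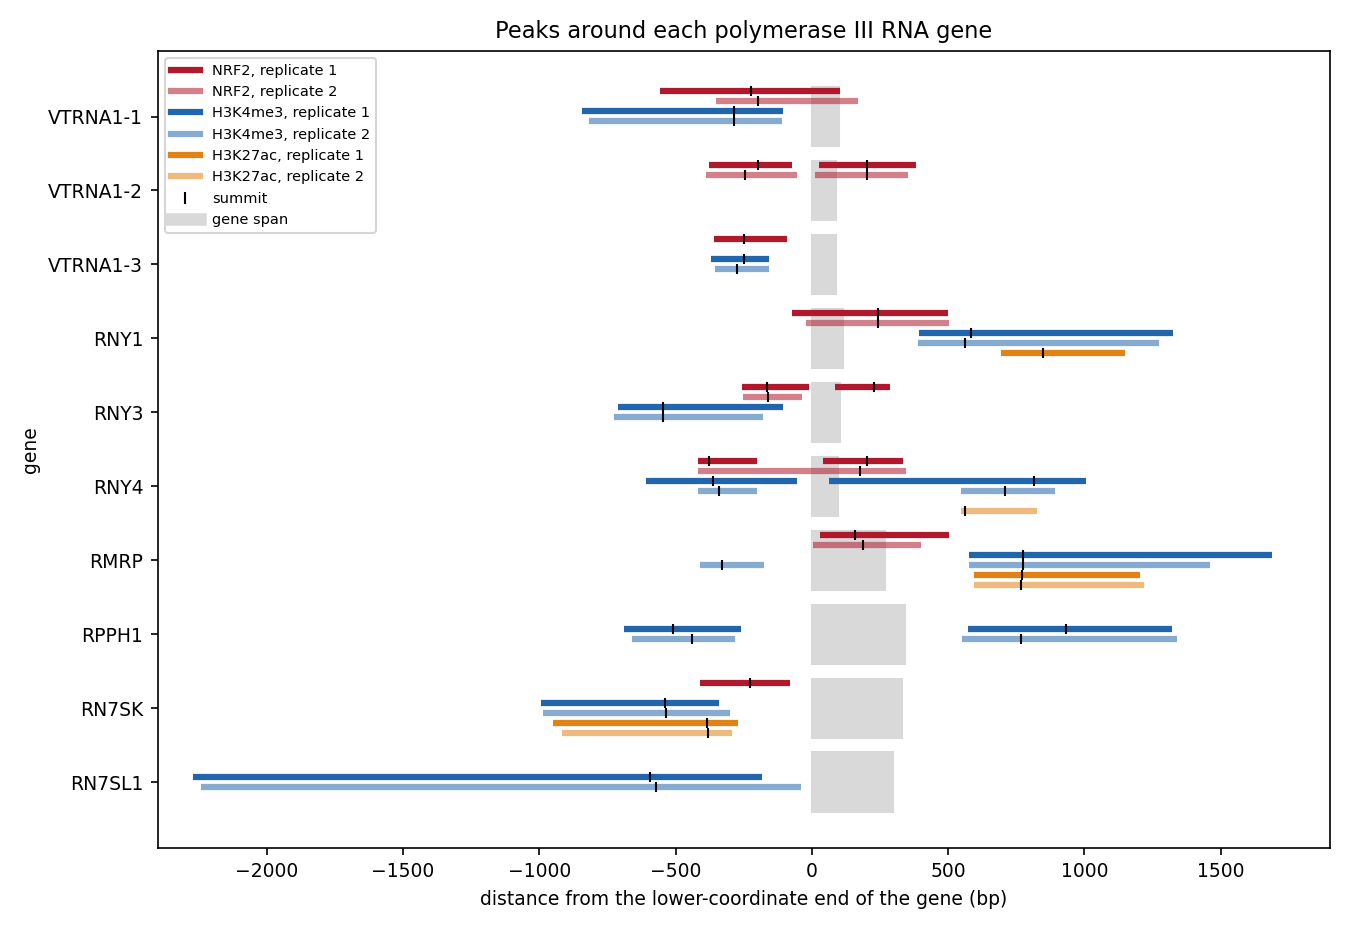
Peaks of NRF2, H3K4me3 and H3K27ac around each gene, as distance in bp from the lower-coordinate end of the gene (horizontal axis), with 1 line for each library, black ticks for summits and a grey block for the gene span. NRF2 peaks run up to or over most vault and Y RNA genes, and H3K4me3 peaks lie outside the grey blocks except for 1 peak at RNY4.

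H3K4me3 was present at 9 of the 10 genes in both libraries, all but VTRNA1-2, where 28.8% of all RefSeq genes and 62.8% of coding genes had it. Among noncoding genes of up to 500 bp, 6.93% had it. H3K4me3 levels at the 9 genes were modest. The median of the mean highest fold enrichment was 7.13 over the 9 genes, against 15.4 over all 16994 genes called and 6.59 over the 217 tRNA genes called. Over the 726 noncoding genes of up to 500 bp called it was 13.1. Longer genes have wider windows in which a high peak can be found, so the value over all genes is not matched for length. A peak in either library was found at the same 9 genes, against 29.8% of all genes. In replicate 1, 3 of the 9 exceeded the median of their library, and in replicate 2 it was 2 of 9.

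RN7SL1 had the highest H3K4me3, 19.5 and 16.3 in replicates 1 and 2, with a mean of 17.9 ± 2.28 (SD, n = 2). RMRP had 14.2 and 17.9, with a mean of 16.1 ± 2.58 (SD, n = 2), so the replicates of these genes overlapped. RPPH1 had 10.8 and 6.70, with a mean of 8.75 ± 2.90 (SD, n = 2), and RN7SK had 7.57 and 8.28, with a mean of 7.92 ± 0.502 (SD, n = 2). These 4 are the genes with a coding gene inside their window. CCDC107 begins 273 bp from RMRP, PARP2 224 bp from RPPH1 and GSTA4 336 bp from RN7SK, and RN7SL1 lies within the annotated span of RPS29, a ribosomal protein gene.

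The vault and Y RNA genes had lower means, although single replicates of VTRNA1-1, RNY1, RNY3 and RNY4 overlapped with those of RPPH1 or RN7SK. VTRNA1-1 had 7.36 and 6.90 for H3K4me3, with a mean of 7.13 ± 0.323 (SD, n = 2), and RNY3 had 6.62 and 7.21, with a mean of 6.92 ± 0.419 (SD, n = 2). RNY1 had 5.73 and 7.62, with a mean of 6.67 ± 1.34 (SD, n = 2), and RNY4 had 7.80 and 5.19, with a mean of 6.50 ± 1.84 (SD, n = 2). Values of VTRNA1-1, RNY3, RNY1 and RNY4 overlapped with each other. VTRNA1-3 was lowest, with 5.09 and 4.76, and VTRNA1-2 had no H3K4me3 peak nearer than 6777 bp in replicate 1 and 6789 bp in replicate 2. VTRNA1-2 was therefore the only gene of the 10 with NRF2 in both libraries and no H3K4me3.

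H3K4me3 lay to the side of the transcribed DNA. Of its 23 peaks, 22 did not touch the span of the gene and 0 had a summit in it, and the median distance from summit to span was 505 bp. At RPPH1 and RNY4 both libraries had a peak on each side. The peaks past the higher end of RMRP had summits 234 and 232 bp from the start of CCDC107, and those of RPPH1 had summits 370 and 202 bp from the start of PARP2. At RNY1 the summits were 193 and 172 bp inside GHET1, and at RN7SK they were 202 and 201 bp from the start of GSTA4. At RN7SL1 the summits were 595 and 571 bp before the lower end of RN7SL1. They were 12725 and 12701 bp from the nearest outer end of the RPS29 span. Transcript starts of RPS29 inside that span were not looked at, so a link to RPS29 was not tested. How reads that match several copies of a gene were placed is not given in the sources used here. NRF2 and H3K4me3 were both found in both libraries at 5 of the 10 genes, against 0.619% of all genes. Their highest summits were closest at VTRNA1-3, at the same position in replicate 1, and at VTRNA1-1, 62 and 86 bp apart, and farthest at RMRP, 617 and 585 bp apart, where their peaks shared 0 bp.

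H3K27ac was found in both libraries at 2 of the 10 genes, RMRP and RN7SK, against 24% of all RefSeq genes and 4.08% of noncoding genes of up to 500 bp, and in either library at 4, against 27.2%. RMRP had 5.46 and 5.04, with a mean of 5.25 ± 0.299 (SD, n = 2), and RN7SK had 5.09 and 4.83, with a mean of 4.96 ± 0.179 (SD, n = 2). In both cases the peaks are close to the start of a coding gene. Summits lay 228 and 227 bp from the start of CCDC107 at RMRP, and 47 and 45 bp from the start of GSTA4 at RN7SK. RNY1 had a peak of 3.02 in replicate 1 only and RNY4 one of 3.19 in replicate 2 only. H3K4me3 in both libraries with no H3K27ac in either was found at 5 of the 10 genes, VTRNA1-1, VTRNA1-3, RNY3, RPPH1 and RN7SL1, against 5.03% of all genes, 9.24% of coding genes and 38.2% of tRNA genes. H3K4me3 with H3K27ac in both libraries was found at 2 of 10, against 21.6% of all genes and 49.2% of coding genes. With 10 genes, this count and the count of 2 for H3K27ac are near the shares of all genes, so nothing is read from them.

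**Figure D3:**
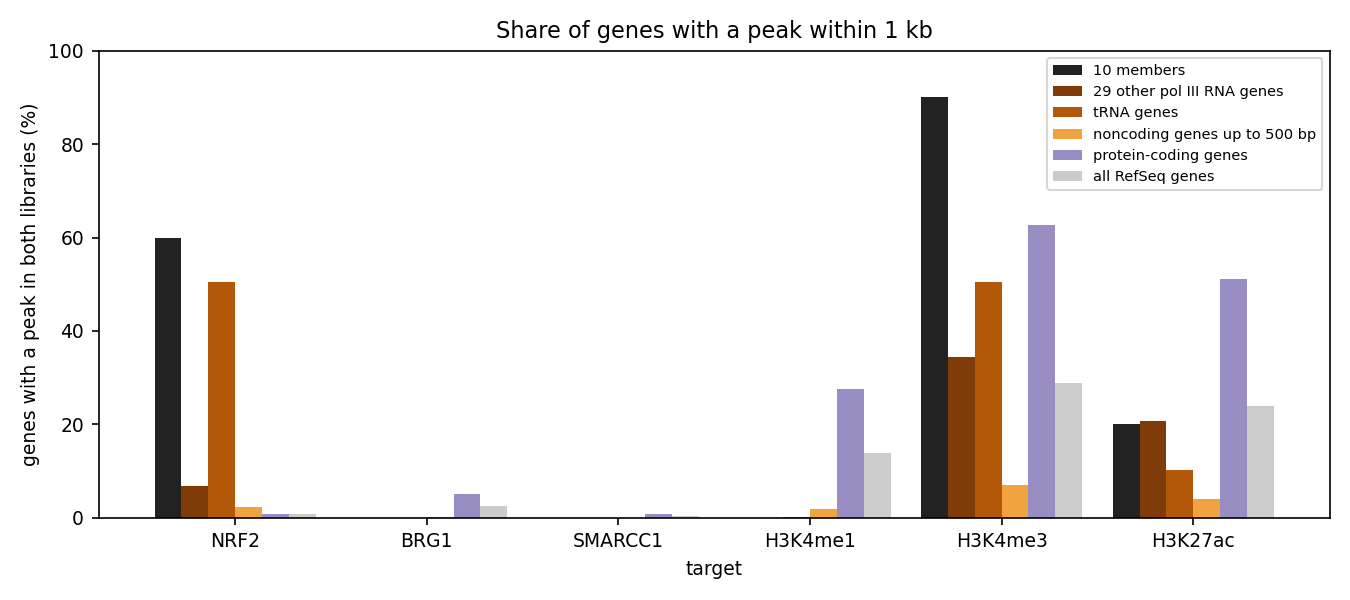
Share of genes (%, vertical axis) with a peak of each target (horizontal axis) in both libraries within 1 kb, for the 10 genes described here and for other classes. The 10 genes stand at 60% for NRF2, 90% for H3K4me3 and 20% for H3K27ac, and at 0 for BRG1, SMARCC1 and H3K4me1.

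BRG1, SMARCC1 and H3K4me1 had no peak within 1 kb of any of the 10 genes in any library. By the same rule 2.6% of all RefSeq genes had BRG1, 0.366% SMARCC1 and 13.9% H3K4me1 in both libraries, while in either library 6.86% had BRG1, 1.54% SMARCC1 and 19.3% H3K4me1. Among noncoding genes of up to 500 bp, 1.91% had H3K4me1 in both libraries. With 10 genes, a count of 0 is near these rates for all 3 targets, so nothing is read from it. Of the tRNA genes 0% had BRG1 or SMARCC1 and 0.233% had H3K4me1. The nearest BRG1 peak to any of the 10 genes was 10.9 kb from RMRP, in replicate 2, with a fold enrichment of 2.93, and in replicate 1 it was 46.2 kb from RN7SK. Medians over the 10 genes were 348 and 287 kb. For SMARCC1 the nearest was 187 kb from RMRP in replicate 1 and 313 kb from RN7SK in replicate 2. H3K4me1 came nearest at RNY1, 1421 bp away with 3.01 in replicate 2, but 57.0 kb away in replicate 1.

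**Figure D4:**
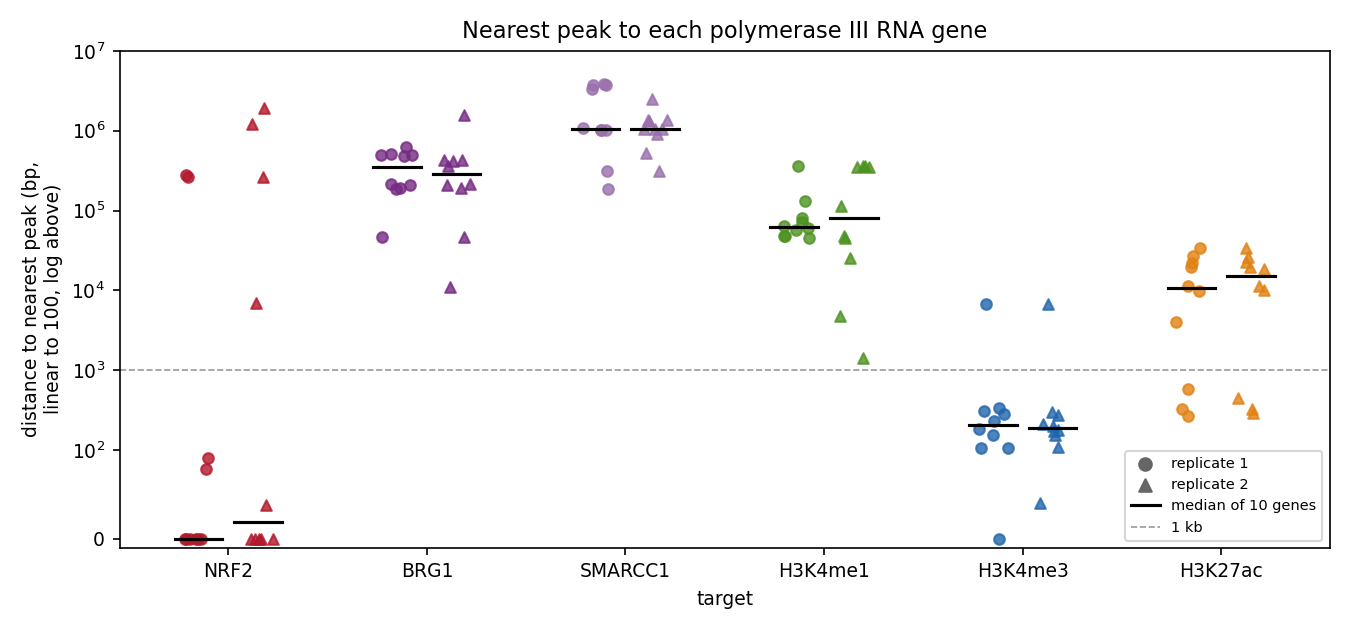
Distance in bp from each gene to the nearest peak of each library (vertical axis, linear to 100 bp and logarithmic above), by target, with black bars for the median over the 10 genes and a dashed line at 1 kb. The NRF2 and H3K4me3 medians lie under 1 kb, the H3K27ac median was 10.6 kb in replicate 1, and BRG1 and SMARCC1 points all lie above 10 kb.

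Other genes of the polymerase III system were read for comparison. Of 29 other polymerase III RNA genes, 2 had NRF2 in both libraries, RNY5 and RNU6ATAC, a minor spliceosome RNA, against 0.812% of all RefSeq genes. H3K4me3 was in both libraries at 10, or 34.5%, near the 28.8% of all genes. RNU6-7 and RNU6-8 had the same H3K4me3 values, 15.6 and 15.2, so 1 peak appears to count for both. RNA5S17 overlaps the span of RHOU, and RNU6-2 and RNU6-9 are 399 and 297 bp from TMEM259 and MED16. RNU6ATAC had NRF2 fold enrichments of 4.21 and 4.15, and H3K4me3 of 4.44 and 3.89. A further 4, RN7SL2, RNU6-2, RNU6-7 and RNU6-9, had NRF2 in replicate 1 only, from 3.36 at RNU6-9 to 4.99 at RNU6-7. RN7SL2, a near copy of RN7SL1, had 3.92 there, with H3K4me3 of 10.3 and 8.40 and H3K27ac of 5.01 and 4.62, whereas RN7SL1 had neither NRF2 nor H3K27ac. Reads shared by such copies cannot be placed for certain. Of the 17 5S rRNA genes of that list, 0 had NRF2 and 2 had H3K4me3 in both libraries. VTRNA2-1, BCYRN1 and TRU-TCA2-1 had no peak of any target in either library.

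The genes of the proteins that make and bind these RNAs are coding genes and so are set against coding rates, with no test of a difference. Of 32 genes of polymerase III subunits and transcription factors, 32 had H3K4me3 in both libraries and 25 had H3K27ac, against 62.8% and 51.2% of coding genes. NRF2 was in both libraries at 0 of the 32, with POLR3B and POLR3E in 1 library each, against 0.831% of coding genes, and 2 had BRG1, against 5.18%. These were CRCP, a polymerase III subunit, with BRG1 of 5.14 and 6.10, and BDP1, part of TFIIIB, with 3.04 and 2.74. Of 27 protein partners of the RNAs, among them RO60, MVP, LARP7 and SRP54, 27 had H3K4me3 and 26 had H3K27ac, all but LARP7, and 0 had NRF2 or BRG1 in either library. RO60 had SMARCC1 in 1 library. In either library 4.37% of coding genes had NRF2, 13.2% BRG1 and 3.63% SMARCC1.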

How the data were processed

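PANC1 CUT&RUN peak lists of 12 libraries, 2 for each of 6 targets, were grouped by the labels. Tools listed in the submitters' processing notes, with no settings, are MACS2 2.2.7.1, Picard 2.23.9, Bowtie2 2.4.1 and SAMtools 1.9, with GRCh38 as the build. Peaks were deposited by the authors for each library separately. The fold enrichment is the authors' deposited ratio and was not rescaled; whether it is over IgG is not given in the sources used here. The deposited −log10 p and −log10 q served as thresholds in alternatives, and the deposited score was not used.

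From these, peaks overlapping a RefSeq gene span plus 1000 bp to both sides by at least 1 bp were counted, and the highest fold enrichment in each library was taken. Genes on scaffolds not placed on a chromosome were left out, 831 of 59792. RefSeq here gives no strand or exons for these genes. All 10 genes were named in full; of the 4 comparison lists, genes with a factor peak in both libraries were named, and genes outside that rule that are named were chosen after their values were seen. The members and lists were chosen with earlier results of these data known. Overlap counting was tested on simulated data, 1500 peaks over 835 genes, with 0 wrong. The motif search was planned for the genes' own promoters and was limited to neighbouring windows. One epithelial or ductal marker gene of the list is not reported here. Alternatives were peak thresholds, windows, overlap rules and libraries. Analyses used Python 3.11.15, NumPy 2.4.6, pandas 2.3.3 and matplotlib 3.10.9.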

Additional observations from a re-analysis of the deposited data

How the results depend on the processing

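Over 12 other settings, BRG1, SMARCC1 and H3K4me1 stayed at 0 of 10 genes, with windows of up to 5000 bp included. The NRF2 count of 6 ran from 3 to 8. At −log10 q of at least 5 it was 3, with VTRNA1-1, VTRNA1-2 and RNY4, at −log10 q of at least 1.3 it was 4 and at −log10 p of at least 5 it was 5. Leaving out 1 library gave 6 to 8 for NRF2, 9 to 9 for H3K4me3, 3 to 3 for H3K27ac and 0 to 0 for the other targets. The H3K4me3 count of 9 was 7 at −log10 q of at least 5, and 0 with a 0 bp window, since its peaks flank the spans. With at least 50% of the peak required in the window it was 8, without RN7SL1, the gene with the highest H3K4me3. The H3K27ac count of 2 was 0 at −log10 q of at least 5, 0 with a 0 bp window and 4 with a peak in either library. Windows of 500, 2000 and 5000 bp left all 6 counts as they were. NRF2 at VTRNA1-2 was 4.39 with a 0 bp window, since its highest peak lies outside the span, and at RNY3 5.68 with a 5000 bp window, which reaches the RNY1 peak. No paired analysis was possible because the results come from no test. Read depth is unknown, so an absent peak is not evidence of absent binding, and 2 libraries give only a rough SD.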

Other observations

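The human genome holds many copies of these RNA genes that are not known to be transcribed. Of 1055 pseudogenes named after the 7SL, 7SK, Y, vault and RMRP RNAs, 0 had NRF2 in both libraries, and 2, RNY5P5 and RN7SL793P, had it in 1 library, with 4.63 and 3.19. H3K4me3 was found in both libraries at 16 of the 1055, or 1.52%, against 28.8% of all genes and 6.93% of noncoding genes of up to 500 bp. H3K27ac was found in both at 19, or 1.80%, against 24% and 4.08%. BRG1 was found in both libraries at 5, or 0.474%, against 2.6% of all RefSeq genes and 0.181% of noncoding genes of up to 500 bp. The highest of them was RN7SL466P, with fold enrichments of 3.99 and 5.36, and the others were RN7SKP192, RN7SKP2, RN7SKP193 and RN7SL346P. Of the 75 Y RNA pseudogenes, 0 had NRF2 and 2 had H3K4me3 in both libraries. With 75 genes, 0 is near the NRF2 rates given above, so nothing is read from it. RNY1, RNY3, RNY4 and RNY5 had both NRF2 and H3K4me3. How reads that match several copies were placed is not given in the sources used here.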
